A study of Mus musculus with 9 samples.

Results

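The genes described here encode the 5 subunits of the transcription factor NF-kB (Nfkb1, Nfkb2, Rel, Rela and Relb) and 5 IkB proteins that bind it (Nfkbia, Nfkbib, Nfkbid, Nfkbie and Nfkbiz). They were chosen by symbol, and their Ensembl identifiers matched 10 of the 47643 rows of the count table, all 10 of which passed the filter on low counts. RNA was sequenced from bone marrow-derived mast cells (BMMCs), which were grown from the marrow of C57BL/6 mice in WEHI-3-conditioned medium for at least 4 weeks. The study asked how luteolin, a plant flavonoid, changes the transcriptome of mast cells activated through IgE. There were 3 groups of 3 libraries each. Control cells were unstimulated. Cells labelled IgE+BSA (here BSA) were sensitised with IgE against DNP and challenged with DNP-BSA, the antigen that crosslinks it. Cells labelled IgE+BSA+Luteolin (here BSA + luteolin) had luteolin in addition. The paper's legends differ on the order, with luteolin as a pretreatment in one place and after the stimulation in another. The sample records give luteolin at 10 μM for 24 h. They give it on every record, Control and BSA included. The paper calls the stimulated cells without luteolin vehicle-treated, without naming the vehicle, and the length of the challenge for these libraries was not found in the sources used here. Nothing says that the libraries came from separate mice or cultures, so all p-values below measure only the spread between these libraries, which may be technical.

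NF-kB subunits pair into dimers that are held inactive in the cytoplasm by the classical inhibitors IkBα, IkBβ and IkBε (genes Nfkbia, Nfkbib and Nfkbie). Crosslinking of the IgE receptor on mast cells activates the IKK kinases, which mark these inhibitors for destruction and free the dimers to enter the nucleus. Several genes of the system, Nfkbia above all, are themselves NF-kB targets, so transcripts of an inhibitor can mark recent activity of the factor. The atypical IkB proteins IkBNS and IkBζ (Nfkbid and Nfkbiz) act in the nucleus on bound dimers and can favour or restrain single target genes. What was measured is RNA, and neither the proteins nor their location or phosphorylation were measured in these libraries.

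In activated BMMCs, 4 of the 10 genes rose over Control: Nfkbid by 12.2-fold, Nfkbiz by 4.62-fold, Rel by 3.04-fold and Nfkbia by 1.94-fold. With luteolin, 9 of the 10 were lower than in BSA, Nfkbia by 11.1-fold, Nfkbiz by 8.15-fold, Nfkbid by 6.90-fold and Rel by 5.32-fold, and Nfkbie was not called. Against Control, BSA + luteolin had lower Nfkbia and Nfkbiz by 5.77-fold and 1.77-fold. These calls are from edgeR's quasi-likelihood test with Benjamini-Hochberg adjustment over 11560 genes and a threshold of 0.05.

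The calls are read against how often any gene was called. Between BSA and Control, 2.25% of all genes tested were called higher and 1.02% lower, against 4 and 0 of the 10 genes. Between BSA + luteolin and BSA, 18.1% were called higher and 21.9% lower, against 0 and 9 of 10. In that comparison the 3 luteolin libraries lay below all 3 BSA libraries for 9 of the 10 genes and for 26.2% of all genes. Between BSA + luteolin and Control, 0.285% were called higher and 2.75% lower, against 0 and 2 of 10. The median log2 fold change of the 10 genes was 0.41, -0.62 and -0.28 in these comparisons, beside 0.02, 0.02 and 0.01 over all genes. Each group enters 2 of the 3 comparisons, so these are not independent of each other.

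Libraries held 9515004 to 24605689 counts, with Control replicate 2 the shallowest. All 12 mast cell markers were detected in all 9, from Mrgprb2 at 9.38 to 29.9 CPM to Cpa3, a mast cell protease, at 23040 to 33660 CPM (each library's counts scaled to a common total, with TMM factors). Fcer1a, the receptor chain that binds IgE, was at 4367 to 6879 CPM. Between BSA + luteolin and BSA, 6 of the 12 were called higher, Cpa3 and Fcer1a among them, and 3 lower, with the tryptase gene Tpsab1 2.49-fold and Hdc, the gene of the histamine-forming enzyme, 2.23-fold lower. The 3 basophil markers summed to 1652 to 1878 CPM in Control, 1446 to 1504 in BSA and 1610 to 1754 in BSA + luteolin, and all 3 were called higher with luteolin than in BSA (1.15-fold to 1.18-fold). Their part in the results below was not tested. Macrophage markers summed to 300.3 to 365.5 CPM, mostly Adgre1 (202.5 to 259.2) and Lyz2 (89.5 to 112.6). Csf1r was at 4.62 to 10.3 CPM, and Mertk, C1qa and C1qb did not exceed 0.453 CPM in any library. Eosinophil markers summed to 23.7 to 35.6 CPM. Of these, Siglecf was 2.11-fold lower with luteolin than in BSA, while Epx (log2 fold change 0.39) and Ccr3 (-0.04) were not called. Of the neutrophil markers, S100a8 and S100a9 were 1.35-fold and 1.25-fold higher, and Ly6g, Mpo and Elane were not called. Marker sets of dendritic, T and B cells summed to under 1 CPM in every library. Control replicate 1 stood apart from Control replicates 2 and 3. Over the genes tested, its log2 CPM correlated at 0.944 with each of them, at 0.962 to 0.972 with the BSA libraries and at 0.979 to 0.980 with the luteolin libraries, while Control replicates 2 and 3 correlated at 0.991 with each other. These values are across genes, which are not independent replicates. The 5 neutrophil markers summed to 189.2 CPM in replicate 1 but to 6.97 and 5.65 CPM in replicates 2 and 3, beside 124.8 to 136.2 in BSA and 145.9 to 171.9 in BSA + luteolin. Mcpt4, a mast cell protease, was at 1752 CPM in Control replicate 1 and at 201.5 and 196.8 CPM in the other Control libraries, and Mcpt8, a basophil protease, at 431.7, 21.8 and 18.7 CPM. In these markers Control replicates 2 and 3 differ from all 7 other libraries. The part of this difference in the results against Control was not tested, and the results of the 10 genes against Control are also given without Control replicate 1 where that changed a call. Without it the background rises steeply, to 22.6% higher and 22.4% lower between BSA and Control, and to 29.9% and 30.1% between BSA + luteolin and Control. In bulk RNA, fewer cells of a type and less RNA per cell cannot be told apart.

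**Figure D1:**
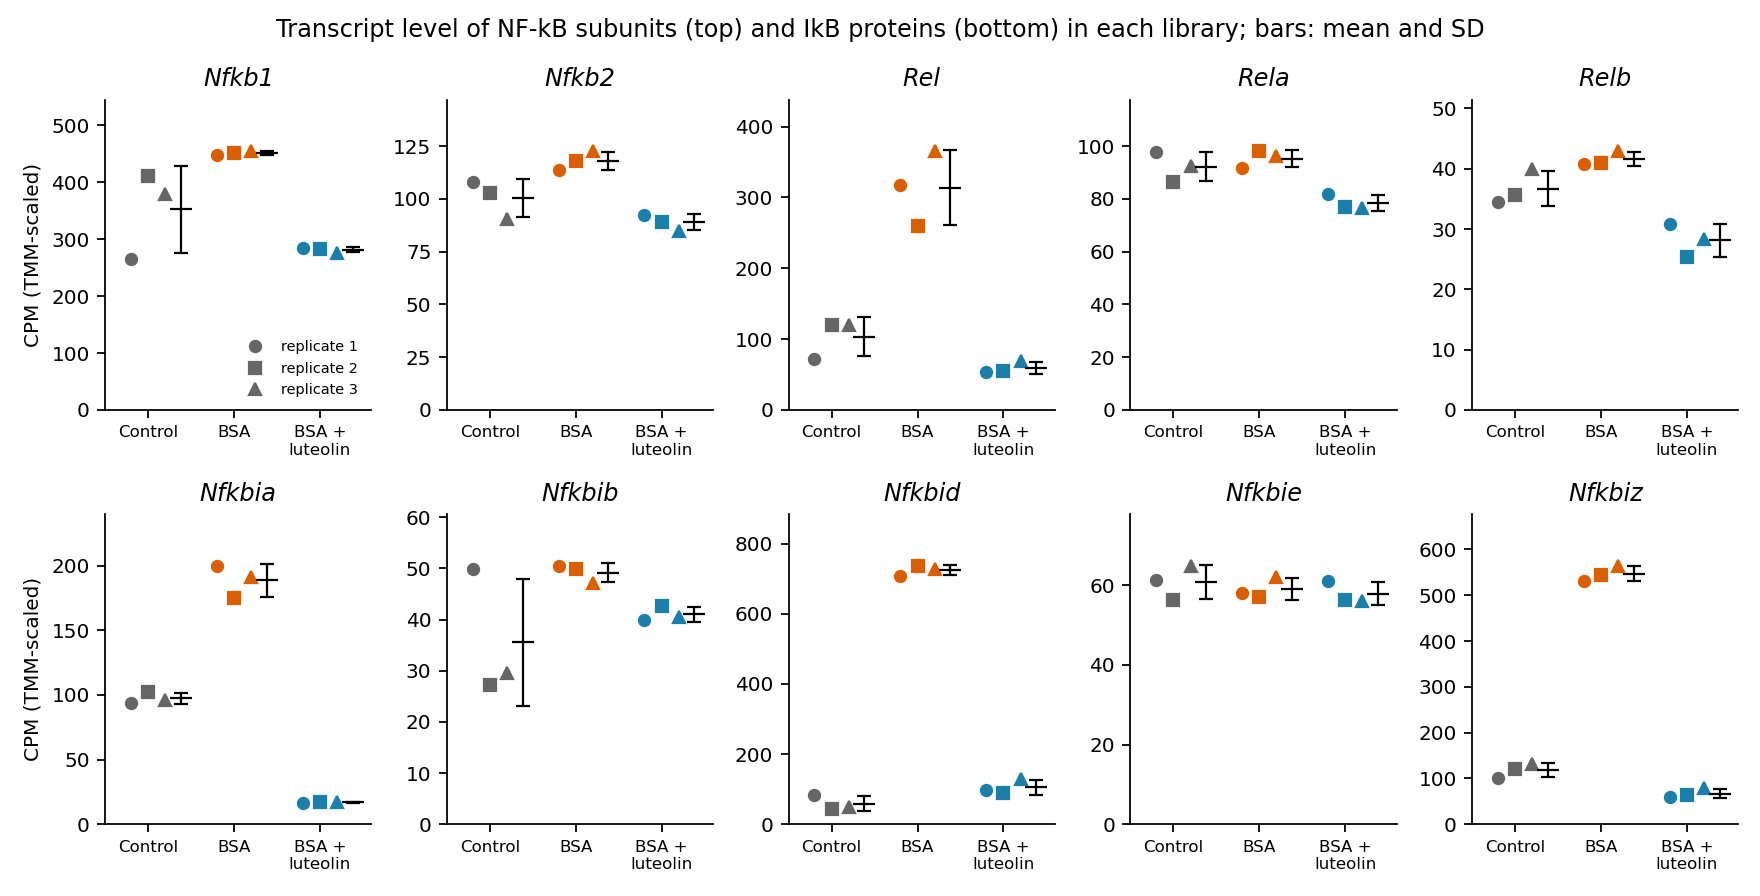
Each point is 1 library, with its level in CPM after TMM scaling on a linear axis from 0, the groups along the horizontal axis and the replicate given by the marker shape; black bars are the mean and SD of 3 libraries. Nfkbid, Nfkbiz, Rel and Nfkbia are highest in BSA, Nfkbia in BSA + luteolin lies at 16.4 to 17.3 CPM, below every Control library, and Control replicate 1 departs from the other Control libraries in Nfkb1, Rel, Nfkbib and Nfkbid.

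Among the subunits, Rel moved most. It encodes c-Rel, a subunit with a transactivation domain that is known for cytokine gene induction in immune cells, and lies on chromosome 11 from 23736847 to 23770970 (GRCm38, the build of all positions here). Rel was at 71.4, 119.4 and 119.4 CPM in the 3 Control libraries, at 317.9, 259.0 and 364.9 CPM in BSA and at 53.7, 54.2 and 69.0 CPM in BSA + luteolin. All BSA libraries lay above all Control libraries, and all luteolin libraries lay below both groups. The rise from Control to BSA had a log2 fold change of 1.60 ± 0.22 (SE, edgeR adjusted p = 0.0124). It missed the threshold without BSA replicate 1 (adjusted p = 0.0791) or BSA replicate 3 (adjusted p = 0.0800). Between BSA + luteolin and BSA, Rel fell by 2.41 on the log2 scale (SE 0.11, edgeR adjusted p = 1.28e-11). Against Control the log2 fold change with luteolin was -0.81 ± 0.22 (edgeR adjusted p = 0.0970). It passed the threshold by DESeq2 (adjusted p = 0.0106), without the filter (0.0257) and with all 3 groups in the fit (0.0385), and without Control replicate 1 it was -1.03 (adjusted p = 1.09e-07). BSA was 4.39 times as high as Control replicate 1 alone and 2.63 times as high as the mean of Control replicates 2 and 3.

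Nfkb1, on chromosome 3 from 135584655 to 135691547, encodes p105 and its product p50, the usual partner of p65. Its level was 266.0, 411.6 and 380.2 CPM in Control, 447.6, 451.1 and 454.4 CPM in BSA, and 285.2, 283.7 and 276.5 CPM in BSA + luteolin. The BSA and luteolin libraries were tightly grouped, with SDs of 3.40 and 4.67 CPM, whereas the Control SD was 76.6 CPM, with replicate 1 below the luteolin libraries and replicates 2 and 3 above them. With luteolin Nfkb1 fell against BSA, with a log2 fold change of -0.68 ± 0.05 (edgeR adjusted p = 1.42e-08). BSA was not called against Control (log2 fold change 0.36 ± 0.16, edgeR adjusted p = 0.266), although the groups did not overlap. Against Control, BSA + luteolin was not called either (-0.33 ± 0.17, edgeR adjusted p = 0.286). Without Control replicate 1 it was called lower (-0.50, edgeR adjusted p = 7.49e-06), and the ratio of BSA + luteolin to Control replicate 1 alone was 1.06.

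Nfkb2, Relb and Rela changed less than Rel and Nfkb1 between BSA and Control and between BSA + luteolin and BSA. Nfkb2 encodes p100, the precursor of p52, and Relb encodes the partner of p52 in the noncanonical dimer. Nfkb2 (chromosome 19, 46304320 to 46312385) was at 107.9, 102.8 and 90.3 CPM in Control, 113.7, 118.0 and 122.5 CPM in BSA and 92.5, 89.2 and 84.9 CPM in BSA + luteolin. Luteolin libraries lay below all BSA libraries and overlapped Control, with a log2 fold change against BSA of -0.41 ± 0.06 (edgeR adjusted p = 4.59e-05). Relb (chromosome 7, 19606217 to 19629438) was at 34.5, 35.6 and 40.0 CPM in Control, 40.8, 41.0 and 42.9 CPM in BSA and 30.8, 25.3 and 28.4 CPM in BSA + luteolin. Its log2 fold change against BSA was -0.56 ± 0.08 (edgeR adjusted p = 5.96e-05), and all luteolin libraries were below all others. Rela (chromosome 19, 5637483 to 5648130), which encodes p65, the main transactivating subunit, was at 97.7, 86.5 and 92.3 CPM in Control, 91.8, 98.0 and 96.1 CPM in BSA and 81.9, 76.9 and 76.7 CPM in BSA + luteolin. Between BSA + luteolin and BSA, Rela was the least changed subunit, with a log2 fold change of -0.28 ± 0.06 (edgeR adjusted p = 0.00164). This call was lost when Control libraries entered the same fit (adjusted p = 0.0648). Between BSA and Control, none of these genes was called, with log2 fold changes of 0.23 ± 0.11 for Nfkb2, 0.18 ± 0.11 for Relb and 0.05 ± 0.10 for Rela. Those of Relb and Rela were below 0 with library size alone as the scaling. Without Control replicate 1, Nfkb2 was called higher in BSA (0.25, edgeR adjusted p = 0.0160), and Relb and Rela were called lower in BSA + luteolin than in Control (-0.44 and -0.20, adjusted p = 0.00119 and 0.0278). Relb also passed there with all 3 groups in the fit (edgeR adjusted p = 0.0469).

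Of the inhibitors, Nfkbia had the lowest luteolin level relative to both other groups. It encodes IkBα, the inhibitor that is resynthesised after NF-kB activation and ends the response, and lies on chromosome 12 from 55489410 to 55492647. Nfkbia was at 93.6, 102.3 and 96.0 CPM in Control, 199.8, 174.6 and 191.0 CPM in BSA and 16.4, 16.9 and 17.3 CPM in BSA + luteolin. The 3 groups were fully separated and the spread among luteolin libraries was small. The rise in BSA was 0.95 ± 0.10 on the log2 scale (edgeR adjusted p = 0.00419). The log2 fold change of BSA + luteolin was -3.48 ± 0.07 against BSA (edgeR adjusted p = 5.75e-16), the 25th lowest of 11560 genes. Against Control it was -2.53 ± 0.11 (edgeR adjusted p = 3.53e-04), the 44th lowest. Nfkbia did not share the departure of Control replicate 1: luteolin libraries averaged 0.180 of the level in that library and 0.170 of the mean of Control replicates 2 and 3.

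Nfkbiz encodes IkBζ, a nuclear IkB protein needed for a set of secondary response genes such as Il6, and lies on chromosome 16 from 55811375 to 55838899. It was at 101.1, 121.5 and 132.3 CPM in Control, 531.7, 544.1 and 564.1 CPM in BSA and 59.1, 63.0 and 78.9 CPM in BSA + luteolin. As with Nfkbia, the groups did not overlap and the luteolin libraries were the lowest. The log2 fold change was 2.21 ± 0.13 for BSA against Control (edgeR adjusted p = 2.06e-04) and -3.03 ± 0.09 for BSA + luteolin against BSA (edgeR adjusted p = 2.59e-14). Against Control, the luteolin value of -0.82 ± 0.16 passed narrowly (edgeR adjusted p = 0.0419). Leaving out any library of that comparison other than Control replicate 1 ended this call, with adjusted p from 0.0908 to 0.237. Without Control replicate 1 the log2 fold change was -0.93 (edgeR adjusted p = 5.04e-07), in a fit that called 30.1% of all genes lower.

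Nfkbid encodes IkBNS, the nuclear IkB protein known for its part in lymphocyte development and in restraining cytokine genes, and lies on chromosome 7 from 30421732 to 30428746. It was at 83.7, 43.2 and 50.1 CPM in Control, 708.3, 736.9 and 728.8 CPM in BSA and 96.8, 89.2 and 128.8 CPM in BSA + luteolin. Here the luteolin libraries lay above all Control libraries, unlike those of Nfkbia and Nfkbiz. The rise in BSA was the 12th highest of all genes tested, with a log2 fold change of 3.61 ± 0.27 (edgeR adjusted p = 7.62e-04). It was 15.5-fold over the mean of Control replicates 2 and 3 and 8.65-fold over Control replicate 1. With luteolin the log2 fold change was -2.79 ± 0.10 against BSA (edgeR adjusted p = 5.25e-13). Against Control, 0.83 ± 0.26 was not called (edgeR adjusted p = 0.134). That value was called with Control replicate 1 left out (1.15, adjusted p = 8.33e-07), and also by DESeq2 (adjusted p = 0.0349), without the filter and with all 3 groups in the fit.

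Nfkbib and Nfkbie, which encode the classical inhibitors IkBβ and IkBε, differed less between the groups. Nfkbib (chromosome 7, 28758251 to 28767512) was at 49.8, 27.2 and 29.5 CPM in Control, 50.5, 49.9 and 47.1 CPM in BSA and 39.9, 42.6 and 40.6 CPM in BSA + luteolin. Control replicate 1 lay among the BSA libraries and replicates 2 and 3 below all others. The log2 fold change with luteolin against BSA was -0.26 ± 0.07 (edgeR adjusted p = 0.00785). That call was lost with library size alone as the scaling (adjusted p = 0.0896) or with Control libraries in the fit (adjusted p = 0.438). Against Control, Nfkbib was called in neither BSA (0.46 ± 0.24, edgeR adjusted p = 0.326) nor BSA + luteolin (0.20 ± 0.22, adjusted p = 0.587), and without Control replicate 1 it was called higher in both (0.74 and 0.52). Exons of Nfkbib overlap those of Ccer2 and Sirt2 on the other strand, and exons of Nfkb2 overlap those of Psd. The libraries were stranded, but the strand setting of the counting is not stated in the sources used here. Nfkbie (chromosome 17, 45555703 to 45563169) was at 61.3, 56.4 and 64.9 CPM in Control, 58.1, 56.9 and 62.2 CPM in BSA and 61.2, 56.3 and 56.1 CPM in BSA + luteolin. The ranges of all groups overlapped, and the log2 fold changes were -0.05 ± 0.11, -0.03 ± 0.07 and -0.08 ± 0.11 (edgeR adjusted p = 0.859, 0.782 and 0.661). Bcl3, the other atypical IkB family gene, was at 7.26 to 9.93 CPM across the 9 libraries and was called in no comparison.

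**Figure D2:**
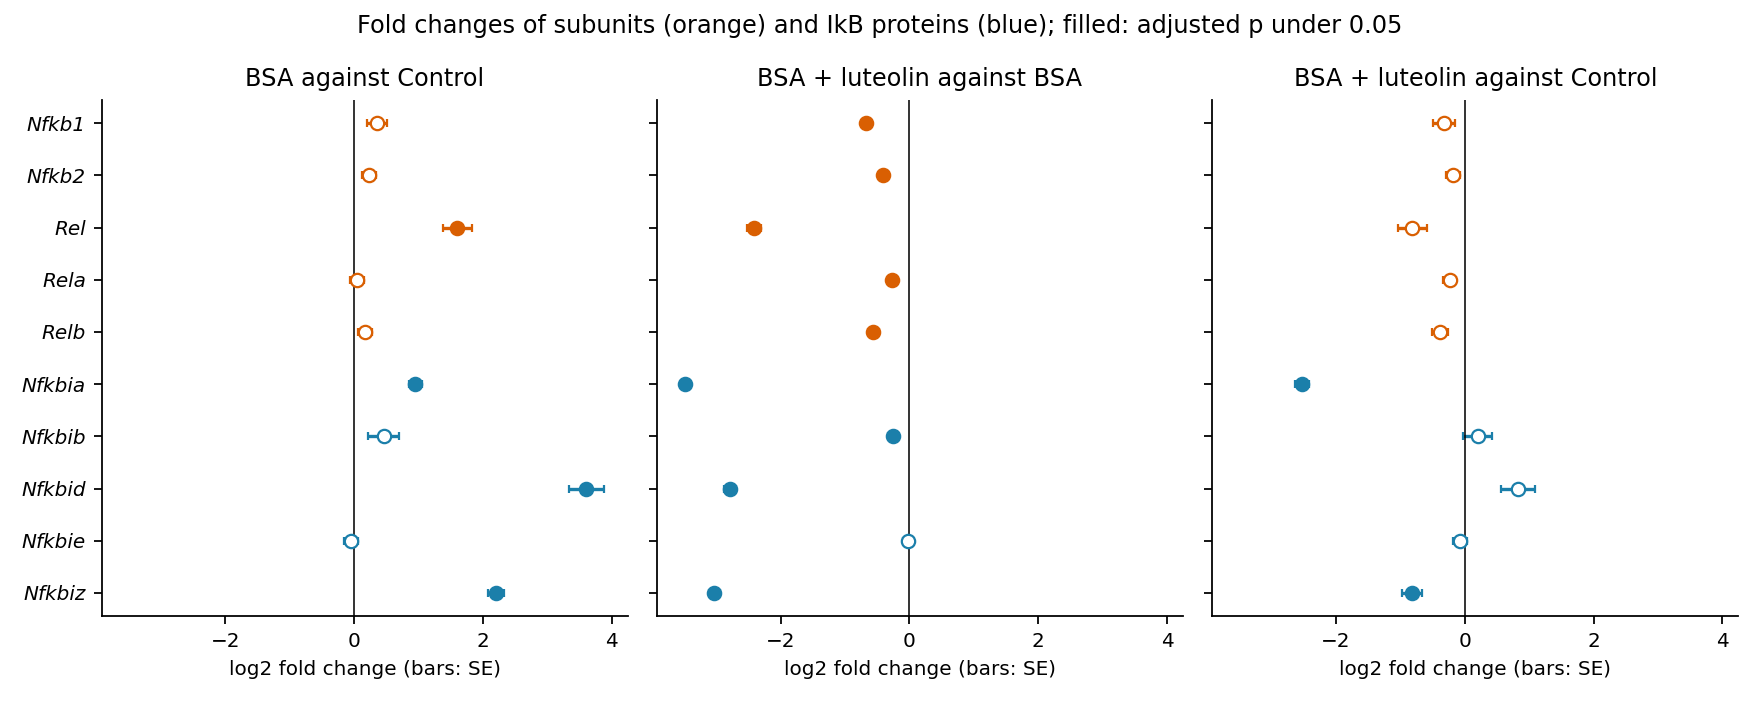
The horizontal axis is the log2 fold change from edgeR with its SE, in 1 panel per comparison, with subunits in orange and IkB genes in blue; filled points passed an adjusted p of 0.05. Nfkbid, Nfkbiz, Rel and Nfkbia lie farthest right in BSA against Control and farthest left in BSA + luteolin against BSA, and Nfkbia and Nfkbiz are the 2 filled points in BSA + luteolin against Control.

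To compare levels between the genes, CPM was divided by the length in kb of the longest CCDS transcript of each gene. On this scale the IkB transcripts summed to 174.3, 151.9 and 158.5 CPM per kb in Control, to 651.6, 651.9 and 663.9 in BSA and to 116.7, 113.6 and 136.0 in BSA + luteolin. The subunit transcripts summed to 160.1, 196.7 and 189.2 CPM per kb in Control, 239.8, 236.5 and 253.0 in BSA and 150.0, 144.4 and 144.5 in BSA + luteolin. Both sums were highest in BSA and lowest in BSA + luteolin, without overlap, and the IkB sum moved further. The make-up of the IkB sum differed between groups. Nfkbia was its largest part in Control (34.0% to 42.7%), Nfkbid in BSA (53.3% to 55.4%) and in BSA + luteolin (38.5% to 46.4%). In BSA + luteolin, Nfkbia was the smallest part at 8.06% to 9.44%, below Nfkbib and Nfkbie. The per-length level of the 3 classical inhibitors together was 101.2 to 108.7 in Control, 158.3 to 175.0 in BSA and 53.7 to 54.9 in BSA + luteolin.

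Among the subunits on this scale, Nfkb1 was the most abundant in every library (64.6 to 110.4 CPM per kb), and Rel held 5.98% to 8.45% of the subunit sum in Control, 14.7% to 19.3% in BSA and 4.80% to 6.39% in BSA + luteolin. In BSA, Rel reached 34.7 to 48.9 CPM per kb beside 33.8 to 36.1 for Rela, ranges that overlap. In Control and BSA + luteolin, Rel was the lowest subunit by transcript length, at 9.57 to 16.0 CPM per kb in Control beside 15.6 to 18.1 for Relb, ranges that overlap, and at 7.20 to 9.24 in BSA + luteolin beside 11.5 to 14.0 for Relb, ranges that do not. The ratio of Nfkbia to Rela was 1.65, 2.04 and 1.79 in Control, 3.75, 3.07 and 3.42 in BSA and 0.346, 0.379 and 0.388 in BSA + luteolin. The ratio thus had no overlap between groups and was lowest with luteolin. With all annotated exons as the length, which for Nfkb1 is 12061 bases against 4117, this ratio kept the same order (1.83 to 2.26, 3.40 to 4.15 and 0.383 to 0.430). The share of Nfkb1 in the subunit sum depended on that choice (40.4% to 50.8% with the transcript length and 23.0% to 31.1% with all exons), and Rel or Rela then exceeded it in some libraries. The standing of Rel depended on it too. With all exons, Rel held 9.98% to 14.9% of the subunit sum in Control, 24.7% to 31.4% in BSA and 8.41% to 11.1% in BSA + luteolin. It then lay above Rela in BSA without overlap (34.7 to 48.9 beside 29.9 to 31.9 CPM per kb), and Relb was lower than Rel in all Control libraries and in luteolin replicates 2 and 3. These sums and ratios are descriptions with no test.

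**Figure D3:**
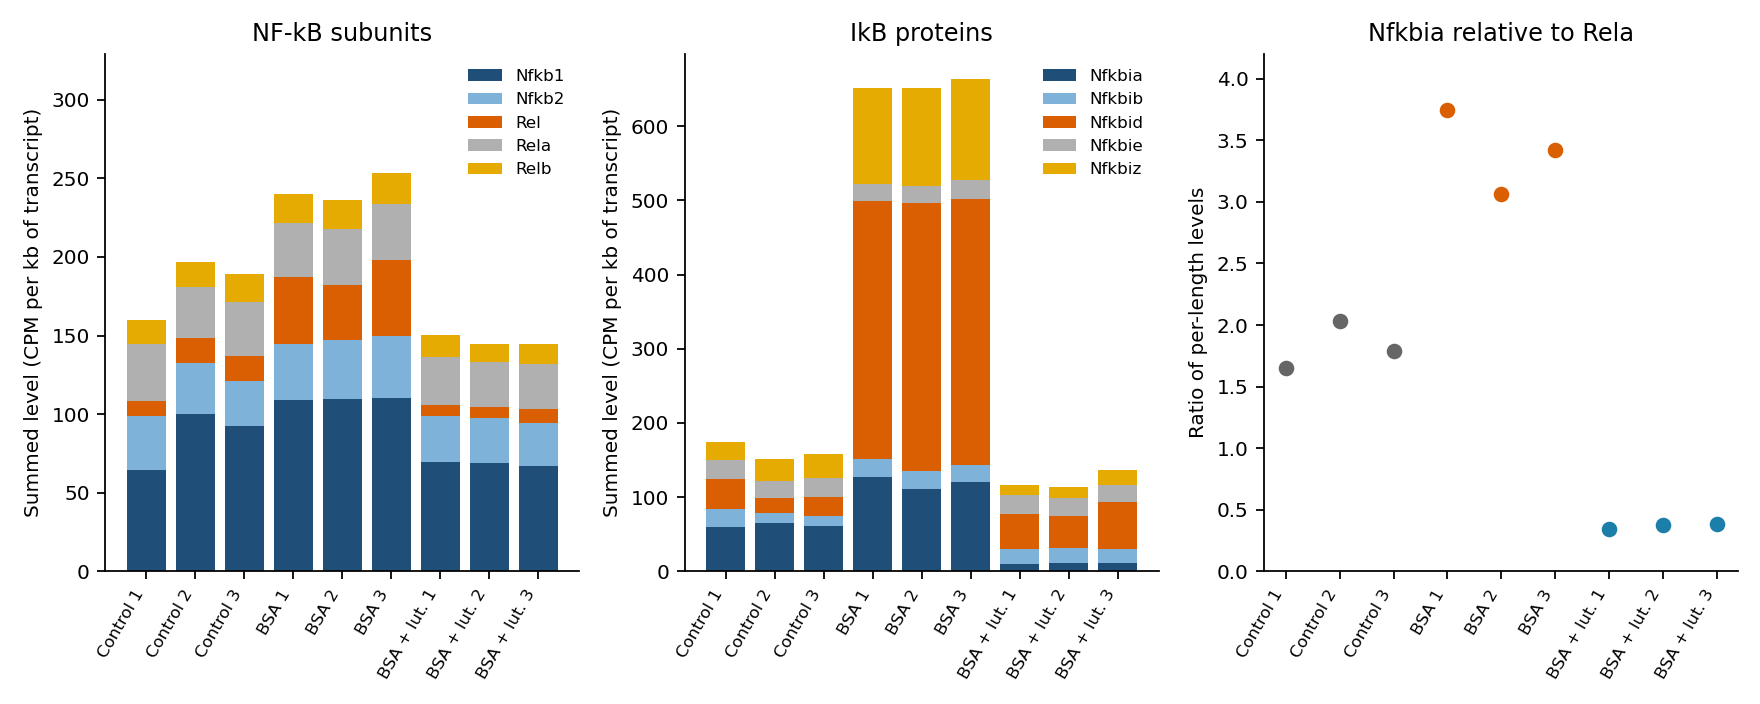
Stacked bars give the level of each gene in CPM per kb of its longest CCDS transcript in each of the 9 libraries, for subunits on the left and IkB genes in the middle, from 0; points on the right give the ratio of Nfkbia to Rela on that scale. The IkB sum is 651.6 to 663.9 in BSA with Nfkbid as its main part, and the ratio is 0.346 to 0.388 in the luteolin libraries.

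Reference promoters show which of these genes carry a letter match to the NF-kB binding site close to a start of transcription. RefSeq windows of 250 bases before to 50 bases after a start (GRCm38.p6) were at hand for 7 of the 10 genes, 11 windows in all. Nfkb1, Relb and Nfkbiz had no entry. The kappaB consensus, searched by its 10 letters on both strands, matched in 7 windows of 5 genes (Nfkb2, Rel, Nfkbia, Nfkbid and Nfkbie) and in 8.46% of all 32851 windows. Of the 3 windows of Nfkb2, 2 overlap and share 1 of the matches, so these 7 windows are not independent. Rela and Nfkbib had no match. Of the 4 genes induced in BSA, the 3 with a window are shown, with Nfkb2 for the window with most matches and Nfkbie as a gene that carries a match and was not called. Capitals mark kappaB matches, overlapping ones included, and each sequence runs 5′ to 3′ on the strand of the gene:
Nfkbia, chr12:55492598-55492897 (- strand): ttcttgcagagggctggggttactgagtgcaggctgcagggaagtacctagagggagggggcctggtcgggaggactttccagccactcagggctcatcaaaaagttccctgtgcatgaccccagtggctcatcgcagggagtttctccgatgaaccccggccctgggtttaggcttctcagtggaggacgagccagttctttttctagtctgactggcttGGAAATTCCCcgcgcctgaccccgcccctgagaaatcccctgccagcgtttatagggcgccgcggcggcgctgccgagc
Nfkbid, chr7:30422156-30422455 (+ strand): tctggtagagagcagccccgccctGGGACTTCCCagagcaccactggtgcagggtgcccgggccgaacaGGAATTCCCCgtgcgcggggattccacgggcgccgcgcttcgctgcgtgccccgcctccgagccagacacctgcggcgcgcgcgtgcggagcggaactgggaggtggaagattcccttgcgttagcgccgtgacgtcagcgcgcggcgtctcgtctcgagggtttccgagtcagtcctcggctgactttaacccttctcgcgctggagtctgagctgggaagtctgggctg
Rel, chr11:23770920-23771219 (- strand): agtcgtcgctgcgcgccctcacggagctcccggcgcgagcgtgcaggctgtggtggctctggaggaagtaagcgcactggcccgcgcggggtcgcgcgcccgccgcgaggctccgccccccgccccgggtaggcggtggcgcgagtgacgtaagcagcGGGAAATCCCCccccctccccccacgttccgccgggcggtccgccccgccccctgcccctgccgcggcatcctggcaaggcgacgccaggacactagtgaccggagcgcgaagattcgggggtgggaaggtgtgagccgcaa
Nfkb2, chr19:46304487-46304786 (+ strand): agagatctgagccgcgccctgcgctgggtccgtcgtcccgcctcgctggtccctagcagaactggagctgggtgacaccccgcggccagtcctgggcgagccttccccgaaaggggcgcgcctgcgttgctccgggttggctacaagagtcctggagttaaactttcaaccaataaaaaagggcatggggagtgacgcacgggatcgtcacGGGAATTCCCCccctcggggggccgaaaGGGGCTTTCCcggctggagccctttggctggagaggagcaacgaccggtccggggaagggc
Nfkbie, chr17:45555450-45555749 (+ strand): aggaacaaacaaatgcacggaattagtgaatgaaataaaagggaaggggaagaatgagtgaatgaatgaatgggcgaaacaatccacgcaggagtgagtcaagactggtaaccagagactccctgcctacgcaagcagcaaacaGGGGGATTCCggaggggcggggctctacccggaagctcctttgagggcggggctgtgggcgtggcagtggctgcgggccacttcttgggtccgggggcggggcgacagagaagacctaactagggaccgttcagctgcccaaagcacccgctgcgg

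In Nfkbia the match lies 29 to 20 bases before the start. In Rel, 2 overlapping matches span 92 to 82 bases before it. In the middle of the 3 windows of Nfkbid, matches lie 226 to 217 and 181 to 172 bases before the start, and the letters TGACGTCA, the cyclic AMP response element, lie 51 to 44 bases before it and in 1.79% of all windows. In Nfkb2 the 3 matches of the window shown fall within the last 39 bases before the start, and in Nfkbie the match lies 106 to 97 bases before it. The letters TGANTCA, a loose form of the AP-1 site with any base in the middle, were found in 7.81% of all windows. Among them were that of Nfkbie (TGAGTCA) and 1 of Nfkb2 (TGAATCA, which lacks the C or G usual in the middle of that site). The EGR letters GCGTGGGCG were found in 0.61%, with none among these genes. A match is a description of letters, and binding was not measured.

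None of the 5 IKK genes was called in any comparison: Chuk and Ikbkb (the catalytic kinases), Ikbkg (the regulatory subunit NEMO), and Tbk1 and Ikbke (the related kinases). Their log2 fold changes between BSA + luteolin and BSA were -0.07 to 0.08, and Ikbkg was called higher with library size alone as the scaling. Ikbkb was at 98.0, 114.1 and 117.1 CPM in Control, 96.3, 98.4 and 101.6 in BSA and 102.9, 103.9 and 93.6 in BSA + luteolin, with overlap of luteolin and BSA libraries. Of the 5 genes of the ubiquitin ligase that marks IkB for destruction, 2 were higher and 1 lower with luteolin than in BSA, beside 18.1% and 21.9% of all genes. With Control libraries in the fit none of these 3 was called (adjusted p = 0.105 to 0.544), and with library size alone as the scaling 3 were higher, beside 33.4% of all genes under that scaling. Fbxw11, a substrate adaptor, was 1.25-fold lower (edgeR adjusted p = 3.85e-04). Btrc, the other adaptor in the list, was not called (log2 fold change -0.02, edgeR adjusted p = 0.891). Rbx1 and Skp1a, the ring and linker subunits, were 1.16-fold higher (edgeR adjusted p = 0.0335 and 0.0104). Libraries of Rbx1 overlapped between the groups, and leaving out either luteolin replicate 1 or 2 ended both higher calls.

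Of 22 tested genes listed for signalling from receptors to IKK, 15 were lower and 1, Sharpin, was higher with luteolin than in BSA. The shares of all genes were 21.9% and 18.1%, and the list median was -0.23 on the log2 scale. With library size alone or upper-quartile factors as the scaling, 7 and 8 were lower, beside 15.3% and 17.5% of all genes under those scalings. With Control libraries in the fit 6 were lower and 0 higher, beside 7.93% and 1.52% of all genes. The change was largest for Map3k8, which encodes the kinase TPL2. TPL2 is held by p105 and acts downstream of IKK, not on the way to it, although Map3k8 is counted in this list. Map3k8 was at 20.6, 34.1 and 33.9 CPM in Control, 239.5, 224.0 and 228.3 CPM in BSA and 30.0, 30.4 and 32.2 CPM in BSA + luteolin. Map3k8 rose in BSA (log2 fold change 2.97 ± 0.20, edgeR adjusted p = 6.07e-04), and without Control replicate 1 the value was 2.71 (adjusted p = 3.72e-12). It was the only gene of the list called there by this fit. Bcl10 was also called by DESeq2, and Bcl10 and Malt1 with all 3 groups in the fit. Luteolin libraries of Map3k8 fell within the range of Control. Traf6, a ubiquitin ligase upstream of IKK, was 2.32-fold lower with luteolin than in BSA. Malt1 and Bcl10, partners in the complex that links protein kinase C to IKK, were 2.12-fold and 1.51-fold lower.

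Of 16 feedback regulators, 3 rose in BSA (Tnfaip3, Tnip3 and Zc3h12a), beside 2.25% of all genes. With library size alone as the scaling Tnip3 was not called, and DESeq2 called 4 higher and 1 lower, beside 5.18% and 5.43% of all genes. With luteolin, 5 fell against BSA (these 3, Tax1bp1 and N4bp1) and 2 rose (Commd1 and Tnip1). The shares over all genes were 21.9% and 18.1%. With library size alone as the scaling 5 fell and 5 rose, beside 15.3% and 33.4% of all genes. With Control libraries in the fit 5 fell, beside 7.93% of all genes, and neither Commd1 nor Tnip1 was called (adjusted p = 0.0963 and 0.0678). Tnip3, which encodes an A20-binding protein, was at 67.5, 53.8 and 70.2 CPM in BSA and 14.6, 15.2 and 17.7 CPM in BSA + luteolin, with Control between them at 23.3 to 33.0 CPM. Zc3h12a, the RNase Regnase-1, followed the same order, with 74.0 to 80.5 CPM in Control, 125.0 to 132.0 in BSA and 33.2 to 42.4 in BSA + luteolin. Both were called lower with luteolin than in Control (log2 fold changes -0.91 and -1.07, edgeR adjusted p = 0.0434 and 0.0115). Leaving out any library other than Control replicate 1 ended the call of Tnip3 (adjusted p = 0.139 to 0.237) and, in 4 of 5 cases, that of Zc3h12a (0.0497 to 0.110). The rise of Tnip3 in BSA was lost in the same way (adjusted p = 0.0530 to 0.139). Without Control replicate 1 the log2 fold changes with luteolin were -1.06 and -1.10. Tax1bp1, an A20 cofactor, was 1.75-fold lower and Commd1, which promotes degradation of p65, 1.52-fold higher with luteolin than in BSA. Tnfaip3 did not follow Nfkbia, and is named here after its values were seen. It encodes A20, the deubiquitinating feedback inhibitor, and was at 180.9, 178.2 and 196.4 CPM in Control, 578.3, 592.7 and 623.0 CPM in BSA and 442.3, 453.6 and 494.0 CPM in BSA + luteolin. With luteolin it stayed above all Control libraries (log2 fold change 1.32 ± 0.10, edgeR adjusted p = 0.00383), and without Control replicate 1 the value was 1.29 (adjusted p = 5.31e-10 by edgeR). With 1 other library left out the adjusted p was 0.0195 to 0.0667, under the threshold in 3 of 5 cases. Against BSA it was 1.29-fold lower (edgeR adjusted p = 1.01e-04).

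Of 28 listed NF-kB target genes, 22 were tested, of which 9 rose in BSA, beside 2.25% of all genes, and 15 fell and 1 (Sod2) rose with luteolin, beside 21.9% and 18.1%. With library size alone as the scaling, 15 fell and 3 rose (15.3% and 33.4% of all genes), and with Control libraries in the fit 12 fell and 0 rose (7.93% and 1.52%). By DESeq2, and with all 3 groups in the fit, 13 rose in BSA, while the share of all genes that rose went up to 5.18% and 5.83%. Of the 9 that rose in BSA, 3 (Csf2, Ier3 and Traf1) were not called with any 1 library other than Control replicate 1 left out. Tnf was at 21.8, 12.0 and 10.6 CPM in Control, 764.8, 800.5 and 710.5 CPM in BSA and 41.7, 37.6 and 46.5 CPM in BSA + luteolin, 18.1-fold lower than in BSA. The growth factor gene Csf2 was 14.0-fold lower, the chemokine gene Ccl4 6.06-fold and the cytokine gene Il6 4.89-fold (edgeR adjusted p = 9.78e-15, 1.11e-14 and 4.60e-15). Against Control, 2 targets were higher with luteolin, Tnf by 2.81-fold and Ccl4 by 2.88-fold, and 2 were lower, Ier3 by 2.08-fold and Myc by 1.81-fold (edgeR adjusted p = 0.0374, 0.0160, 0.0115 and 0.0419). Leaving out any 1 library other than Control replicate 1 ended the calls of Tnf, Ccl4 and Myc (adjusted p = 0.0504 to 0.233) and, in 3 of 5 cases, that of Ier3. Without Control replicate 1 the log2 fold changes were 1.90, 1.79, -0.94 and -0.67. By DESeq2, and with all 3 groups in the fit, 5 targets were higher and 3 lower than in Control, with Ccl2, Gadd45b and Ptgs2 added to the higher ones. The shares of all genes were 3.04% higher and 8.89% lower by DESeq2, and 3.11% and 7.72% with all 3 groups, against 0.285% and 2.75% in the 2-group fit. Il6 was at 342.8, 211.0 and 188.9 CPM in Control and 321.6, 302.2 and 326.7 CPM in BSA + luteolin, ranges that overlap.

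**Figure D4:**
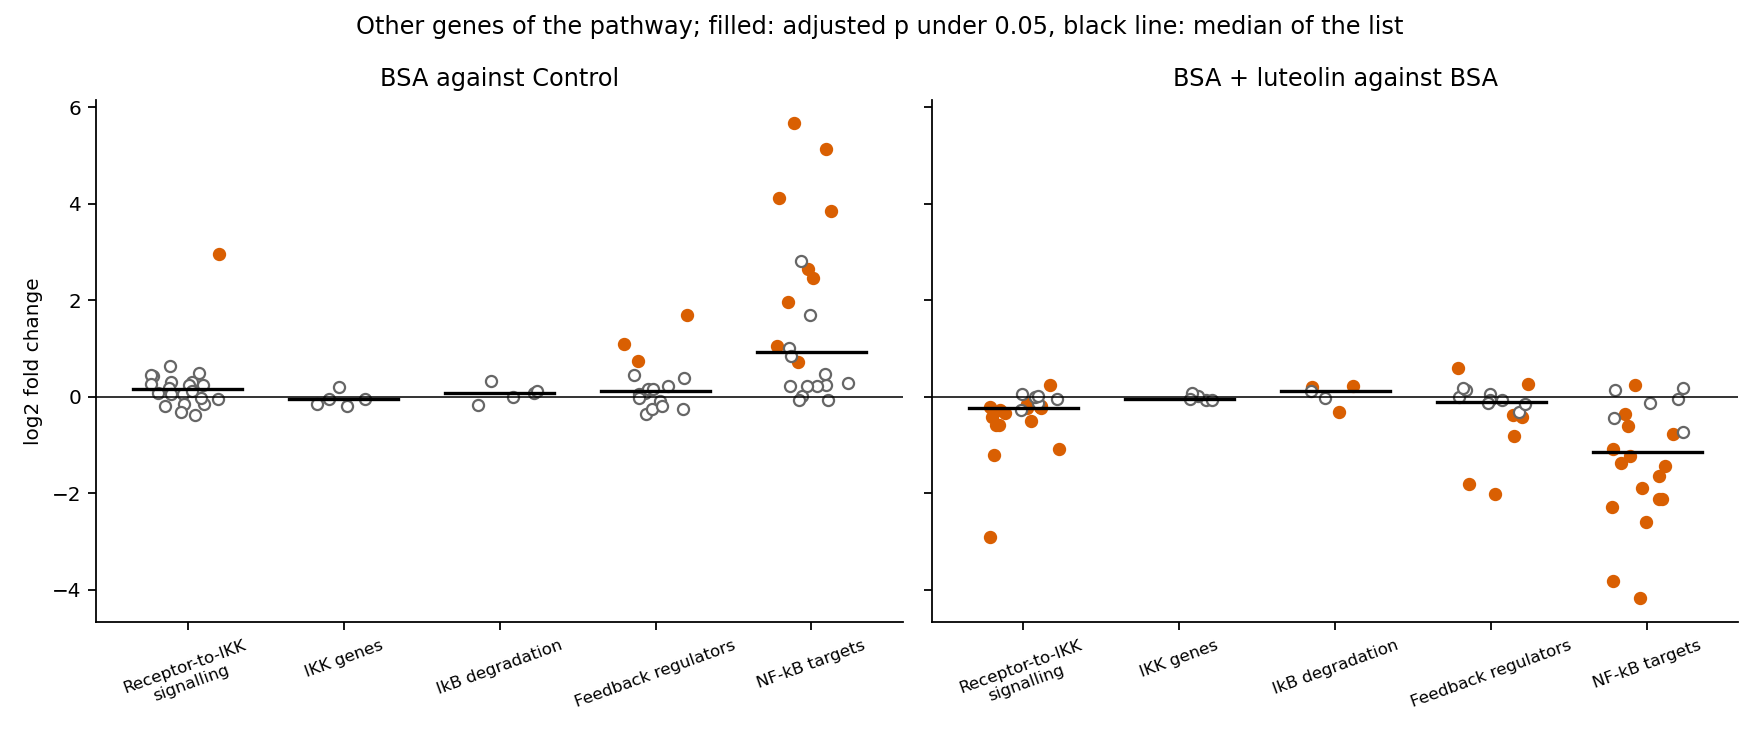
Each point is the log2 fold change of 1 gene from edgeR on the vertical axis, grouped by list along the horizontal axis, for BSA against Control on the left and BSA + luteolin against BSA on the right; filled points passed an adjusted p of 0.05 and black lines are list medians. The IKK genes lie near 0 in both panels, and Map3k8 (2.97 and -2.90), whose kinase acts downstream of IKK, lies apart from the other genes of the receptor-to-IKK list.

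Over the 9 libraries, genes whose log2 CPM followed Nfkbia most closely included Per1 (Pearson r = 0.993), Cfap43 (0.993), Ppp1r10 (0.987) and Coq10b (0.986). Those nearest to Nfkb1 were Cpeb2 (r = 0.988), Dusp18 (0.988), Fbxo30 (0.987), P2ry10b (0.986) and Fth1 (0.984). These values are among the highest of 11560 genes, in libraries that fall into 3 treatment groups, and they are descriptions only.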

How the data were processed

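RNA from 9 BMMC libraries was measured as stranded mRNA-seq. The authors filtered reads with HTStream, aligned them with STAR 2.7.0f to mm10 and deposited unnormalised counts for each Ensembl gene. Counting was by htseq_count, per the file headers, and its annotation and strand setting are not given in the sources used here. Identifiers were named with GENCODE M21 (GRCm38), which matched 47224 of 47643 rows and all 126 listed genes.

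The analysis used R 4.3.3 and edgeR 4.0.16. The quasi-likelihood test, two-sided and with TMM scaling, was fitted on the 6 libraries of each comparison to the 11560 genes whose median CPM exceeded 1. P-values were adjusted by Benjamini-Hochberg over these genes (threshold 0.05). The code was tested on simulated data. Samples were grouped by their labels. Replicates differed by more than sampling noise (chi-square over degrees of freedom of 3.93 or more for each pair). A level of 3 counts corresponds to 0.122 to 0.315 CPM, counting error only. Alternatives were DESeq2 1.42.0, limma 3.58.1, other scalings, filters and fits, a replicate block and each library left out. Control replicate 1 as the only control was added after seeing the data.

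The genes and lists were chosen with earlier results of these data known. Named are the 10 genes, Bcl3, the IKK genes, up to 4 called genes with the largest change from each other list between BSA + luteolin and BSA at a mean CPM of at least 1, and the 5 genes most correlated with Nfkbia and with Nfkb1, of which 1 is not reported here. Sharpin, Btrc, Sod2, Tnfaip3, N4bp1, Tnip1, Ier3, Traf1, Myc, Ccl2, Gadd45b, Ptgs2 and the cell type markers were named after their values were seen.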

Additional observations from a re-analysis of the deposited data

How the results depend on the processing

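Between BSA + luteolin and BSA, the same direction and side of the threshold held for Nfkb1, Nfkb2, Rel, Relb, Nfkbia, Nfkbid and Nfkbiz under every alternative run. With any 1 library left out 9 of the 10 genes were lower, beside 17.6% to 24.0% of all genes. Nfkbie turned to 0.0853 with library size alone and 0.0499 with upper-quartile factors, and ranged from -0.0745 to 0.0106 with 1 library left out. Of all genes, 1093 were called with all 3 groups in 1 fit, against 4624, and 45.4% of calls were higher, against 68.6% with library size alone, 61.8% with upper-quartile factors and 16.1% with all groups. Library size alone moved the median of all genes to 0.13 here and to -0.15 between BSA and Control.

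Between BSA and Control, 378 genes were called, against 1227 by DESeq2, 618 without the filter, 1105 with all groups and 90 to 5207 with 1 library left out, the highest without Control replicate 1. Of these calls 68.8% were higher, against 37.0% with library size alone, 52.4% with upper-quartile factors and 48.8% by DESeq2. The share was 88.2% with the replicate block and 90.5% to 97.8% with 1 library other than Control replicate 1 left out. Rela turned to -0.13 with library size alone and -0.0573 with upper-quartile factors, and ranged from -0.0038 to 0.0718 with 1 library left out. Relb turned to -0.0014 with library size alone, and Nfkbie to 0.0015 without the filter.

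Between BSA + luteolin and Control, 351 genes were called, against 1379 by DESeq2, 811 without the filter, 1251 with all groups and 2 to 6931 with 1 library left out. In each of these first 3 settings 1 of the 10 genes, Nfkbid, was higher, beside 3.04%, 0.472% and 3.11% of the genes tested. By DESeq2 and without the filter 3 were lower (Rel added), and with all groups 4 (Rel and Relb added). The shares of genes tested that were lower were 8.89%, 3.175% and 7.72%, against 2.75% with the main settings. With 1 library left out, 0 to 2 were higher and 1 to 6 lower, beside 0% to 29.9% and 0.0173% to 30.1% of all genes. The counts of 2 and 6, and the highest shares, came without Control replicate 1. Of all calls 9.40% were higher, against 25.5% by DESeq2, 28.7% with all groups and 49.9% without Control replicate 1. The share was 6.13% with the replicate block and 0% to 16% with 1 other library left out.

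Libraries with the same number are not stated to be paired, and the correlations of their deviations ranged from -0.26 to 0.31. With the replicate number as a block, 144, 5582 and 212 genes were called in the order BSA against Control, BSA + luteolin against BSA and BSA + luteolin against Control, and the calls of the 10 genes did not change. The cause of these shifts was not tested. Depth was lowest in Control replicate 2.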
